A study of Mus musculus with 6 samples.

Results

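The genes described here build the machinery that attaches chromosomes to the mitotic spindle: the centromere, the kinetochore, the spindle checkpoint and the chromosomal passenger complex. They were chosen by name, as a list of 39 genes with known roles in it, by a rule that uses no measured value though earlier results of these data were known, and all 39 were found by Entrez identifier among the 27179 genes with deposited counts. All 39 were also among the 11005 genes expressed highly enough to be tested. For short they are called the kinetochore genes. The list was divided by role into the centromeric histone and its loading (4 genes), the constitutive centromere network (10 genes), the outer kinetochore (11 genes), the spindle checkpoint and corona (10 genes) and the chromosomal passenger complex (4 genes).

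Expression was measured by RNA-seq in germinal center (GC) B cells of the spleen from WT mice and from mice lacking the IL-21 receptor (Il21r-/-, labelled Il21r KO), on a C57BL/6 background, at 7, 10 and 14 days after immunization with NP-KLH in alum. NP-KLH is a hapten on a carrier protein, a T cell-dependent antigen, and the sorted cells were NP-binding, IgG1+ and CD38-. There were 6 libraries, 1 per genotype and day, so 3 per genotype. Ages and sexes were not given in the labels. The labels say that each sample came from an independent mouse, whereas the study's methods name more mice per genotype than there are libraries, and its supplement describes a sort from 3 mice of each genotype on day 7. Libraries may therefore be pools of mice, their number on days 10 and 14 is not given in the sources used here, and p-values measure only the spread between these libraries. The methods name more than 1 independent immunization, and which libraries came from which is not given in these sources. A difference between days may therefore also hold a difference between immunizations, which was not tested. The methods also state that nearly all experiments used irradiated hosts reconstituted with WT or Il21r-/- bone marrow. In such hosts the receptor is missing from marrow-derived cells of all kinds, T cells included, and not from the rest of the animal. The labels name no host.

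As background, GC B cells are among the fastest dividing cells of the body, and IL-21 is a cytokine that T follicular helper cells supply to them. Each mitosis needs a kinetochore on every chromatid. It is built on nucleosomes holding the histone variant CENP-A, bound by the constitutive centromere network, and completed in mitosis by an outer layer that holds microtubule ends. The spindle checkpoint delays anaphase until all kinetochores are attached, and the chromosomal passenger complex with its kinase Aurora B releases faulty attachments. Transcripts of many of these genes accumulate in G2 and mitosis, and their promoters often carry a CHR element (cell cycle genes homology region) together with CCAAT boxes.

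Promoter windows from RefSeq (GRCm38.p6, the build of the files, mm10) were at hand for 33 of the 39 genes and ran from 250 bases before the transcription start to 50 bases from it. The CHR letters TTTGAA or TTCGAA, on either strand, were in the windows of 19 of 33 kinetochore genes (57.6%), against 21.7% of all 27025 genes with a window and 16.8% of those that were also tested here. CCAAT, on either strand, was in 23 of 33 (69.7%), against 41.1% of all genes and 44% of tested genes. Both were in 15 of 33 (45.5%), against 9.65% of all genes and 8.38% of tested genes. An E2F motif, TTT followed by 2 bases that are each C or G and then CGC, was in 4 of 33 (12.1%), against 2.6% and 5.02%. These are matches of letters, not measured binding sites. To show the arrangement, 150 bases around the start are printed for 5 genes in which a CHR lies near the start behind 1 or more CCAAT boxes, and for Hjurp, the 1 gene whose log2 fold change over 3 days was not above 0. Hjurp also has a CCAAT match in its window, 182 bases before the start and so outside the printed stretch. The stretches are 5′ to 3′ on the strand of the gene, 120 bases before the start and 30 from it, with CHR and CCAAT letters in capitals (ATTGG is CCAAT, and TTCAAA the CHR, on the opposite strand). In Cdca8 the last capitals are a CHR and a CCAAT match that share 1 base. They lie at Cenpa on the plus strand at chr5:30666766-30666915, Cdca8 on the minus strand at chr4:124936888-124937037, Bub1 on the minus strand at chr2:127831830-127831979, Ttk on the plus strand at chr9:83834569-83834718, Cenpf on the minus strand at chr1:189688057-189688206 and Hjurp on the minus strand at chr1:88277550-88277699.
Cenpa: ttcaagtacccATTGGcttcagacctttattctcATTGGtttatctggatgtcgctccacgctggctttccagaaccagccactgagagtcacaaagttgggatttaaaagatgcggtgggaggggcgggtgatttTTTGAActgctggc
Cdca8: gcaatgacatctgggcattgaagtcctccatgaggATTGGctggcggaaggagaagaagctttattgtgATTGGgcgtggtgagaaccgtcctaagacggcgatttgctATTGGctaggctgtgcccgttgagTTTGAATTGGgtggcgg
Bub1: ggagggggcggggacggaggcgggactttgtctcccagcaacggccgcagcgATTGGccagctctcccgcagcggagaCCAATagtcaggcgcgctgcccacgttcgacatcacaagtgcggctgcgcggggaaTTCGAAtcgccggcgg
Ttk: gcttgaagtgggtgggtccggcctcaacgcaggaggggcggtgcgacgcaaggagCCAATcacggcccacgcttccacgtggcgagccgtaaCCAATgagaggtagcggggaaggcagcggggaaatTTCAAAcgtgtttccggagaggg
Cenpf: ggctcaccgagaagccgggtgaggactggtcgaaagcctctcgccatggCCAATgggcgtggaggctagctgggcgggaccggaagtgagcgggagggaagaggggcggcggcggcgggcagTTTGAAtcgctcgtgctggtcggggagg
Hjurp: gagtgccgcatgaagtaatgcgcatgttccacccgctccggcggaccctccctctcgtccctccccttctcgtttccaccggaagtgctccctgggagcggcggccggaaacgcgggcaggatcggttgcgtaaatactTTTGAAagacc

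The libraries held 21353438 to 27435124 counts, and each kinetochore gene had between 221 and 12090 counts in each library. Il21r itself, the deleted gene, was at 346, 263 and 247 CPM (counts scaled to the library size) in the WT libraries of days 7, 10 and 14 and at 106, 128 and 113 CPM in the Il21r-/- libraries, so its reads were fewer in the knock-out on each day but not absent. All 11 GC B cell markers examined were above 1 CPM in every library. Of 8 T cell markers 7 were under 1 CPM everywhere, and the summed level of 82.1 to 122 CPM was nearly all Lck. The sum of 8 myeloid markers was 2.52 to 8.86 CPM and that of 5 erythroid markers 4.8 to 33.6 CPM. Of the sums, 5 of 6 differed between the genotypes in 1 direction on all 3 days. GC B cell markers summed to 9433, 8118 and 8945 CPM in WT and to 10310, 8416 and 9208 CPM in Il21r-/- on days 7, 10 and 14, the myeloid sum was also higher in Il21r-/-, and the T cell sum was lower. Markers of B cells outside the GC (7 genes) summed to 1197, 743 and 549 CPM in WT and to 1392, 1319 and 911 CPM in Il21r-/-, with Fcer2a and Ccr7 higher in Il21r-/- on each day and Ighm lower. Plasma cell markers (6 genes) summed to 2643, 2524 and 2739 CPM in WT and to 3162, 2774 and 3621 CPM in Il21r-/-, most of it Jchain and Xbp1, with the surface markers Sdc1 and Tnfrsf17 under 1 CPM. Prdm1, the plasma cell regulator, went against this sum, at 1.39, 1.83 and 1.59 CPM in WT and 0.262, 0.610 and 0.683 CPM in Il21r-/-, and Sdc1 was also lower in Il21r-/- on each day. Their part in the differences described here was not tested.

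The kinetochore genes spanned a wide range of levels, with a median above that of all tested genes. Per kilobase of exon, their mean level over the 6 libraries ran from 1.78 RPKM (Cenpf) to 212 RPKM (Bub3), with a median of 25.0 RPKM against 10.3 RPKM for all tested genes. At the top were Bub3 and Mad2l1 (179 RPKM), which form checkpoint complexes, then the histone Cenpa (164 RPKM) and the Mis12 complex subunit Pmf1 (143 RPKM). At the bottom, next to Cenpf, were the CENP-A chaperone Hjurp (3.40 RPKM) and the kinesin Cenpe (4.87 RPKM). These 3 are also the longest of the list, at 11130, 8439 and 7813 exon bases, whereas the median length was 2201 bases.

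The first question was whether the kinetochore genes differed between WT and Il21r-/- GC B cells. Summed over all 39 genes, the level was 3249, 3788 and 4064 CPM in the WT libraries of days 7, 10 and 14 and 3076, 2979 and 3401 CPM in the Il21r-/- libraries. The sums were close on day 7 and apart on days 10 and 14, and they overlapped between the genotypes, since the WT library of day 7 lay below the Il21r-/- library of day 14. Over the 3 days 38 of the 39 genes were higher in WT, with a median log2 fold change (WT over Il21r-/-) of 0.26, where the median of all tested genes was -0.01. On single days the median was 0.07 on day 7, 0.36 on day 10 and 0.30 on day 14, with 29, 38 and 35 of the 39 higher in WT. The WT library was the higher on every day for 25 of the 39 (64.1%, against 25.4% of tested genes), on 2 days for 13, and on 1 day for Cenpq. In bulk libraries, fewer cells that express a gene and less of its RNA per cell cannot be told apart.

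Few of the single differences passed an adjusted p of 0.05, except with day as a block. By edgeR's quasi-likelihood test with a linear effect of day, 1 kinetochore gene, Zwilch, passed an adjusted p of 0.05 (2.56% of the 39), where 1.4% of all tested genes were higher in WT by this test and 4.52% lower. Before adjustment 17 of the 39 had p under 0.05, against 8.31% of tested genes on the WT side. The likelihood ratio tests of single days called none of the 39 on day 7, on day 10 or on day 14, where 0.2%, 0.5% and 0.727% of tested genes were higher in WT. Before adjustment these tests had 0, 12 and 7 of the 39 under 0.05, against 1.75%, 3.18% and 4.29% of tested genes on the WT side. For single days DESeq2 was fitted with a linear day term, where edgeR had a mean for each day. It also called none on any day, where it called 0.118%, 0.236% and 0.182% of tested genes higher in WT by adjusted p. Before adjustment DESeq2 had 0, 3 and 1 of the 39 under 0.05, and no share of tested genes is given for that threshold. With day as a block 18 of the 39 (46.2%) were higher in WT by adjusted p and none lower. Of all tested genes 9.33% were higher and 13.6% lower in this fit. The DESeq2 Wald test over 3 days called 4, namely Zwilch, Aurkb, Incenp and Cdca8, where it called 2.89% of tested genes higher in WT.

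**Figure D1:**
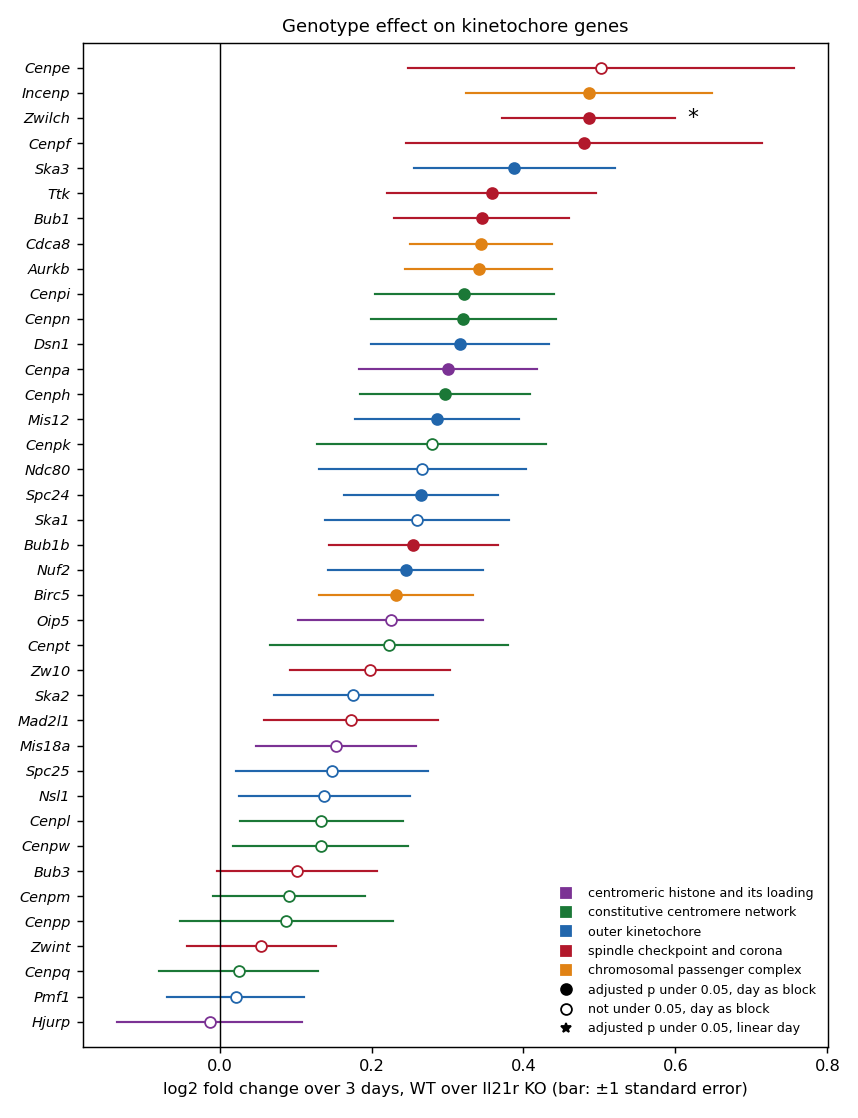
Log2 fold change of each of the 39 genes over 3 days (x axis, WT over Il21r KO, with 1 standard error), ordered by size and coloured by role group. Filled points have an adjusted p under 0.05 with day as a block (18 genes), the star marks Zwilch, which also passed with a linear day term, and all points but that of Hjurp lie to the right of 0.

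For 8 genes the lowest of the 3 WT libraries was above the highest of the 3 Il21r-/- libraries: Cenpa, Mis12, Ska3, Bub1, Zwilch, Zw10, Aurkb and Cdca8. These are 20.5% of the 39, against 8.33% of tested genes with that order. No kinetochore gene had the opposite order, which 10% of tested genes had. Seen by library, the level of each gene relative to its own mean over the 6 libraries was highest in WT on days 14 and 10 (median of the 39 genes 0.28 and 0.16 on the log2 scale). It was lowest in Il21r-/- on days 10 and 7 (-0.17 and -0.14), while the remaining libraries lay between, at -0.08 for WT on day 7 and 0.01 for Il21r-/- on day 14. In WT on day 10 all 39 genes were above their own mean, and in Il21r-/- on day 7 only 1 was.

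**Figure D2:**
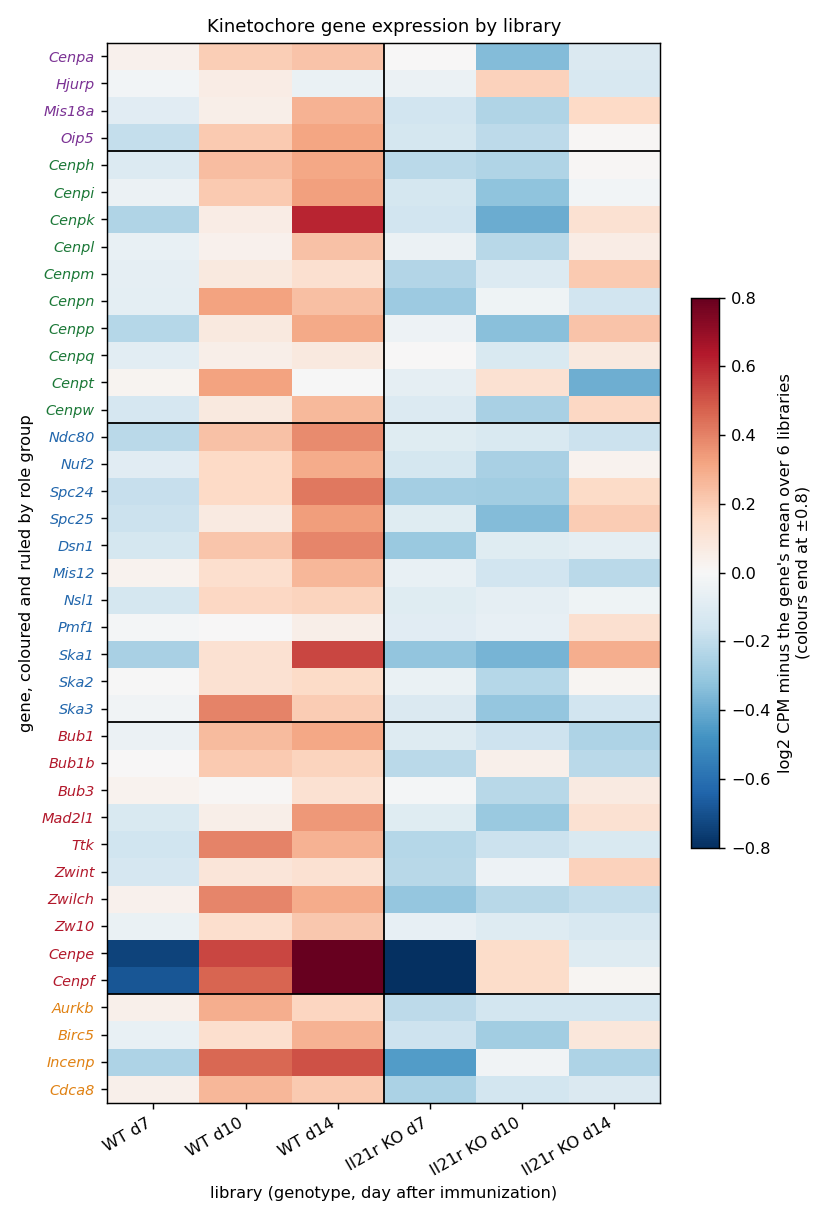
Each row is 1 of the 39 genes, grouped by role, and each column 1 library. Colour gives log2 CPM minus the mean of that gene over the 6 libraries, red above and blue below, with colours ending at 0.8 either way. The WT columns of days 10 and 14 are red in nearly all rows, the Il21r KO columns of days 7 and 10 are blue in nearly all rows, that of day 14 is mixed, and Cenpe and Cenpf have the widest range.

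Among the 4 genes of the centromeric histone and its loading, 3 were higher in WT over the 3 days and Cenpa alone passed the test with day as a block. Values in 3 libraries are given here and further on in the order day 7, day 10, day 14. Cenpa, the histone H3 variant that marks the centromere, was at 223, 249 and 255 CPM in WT and at 217, 171 and 201 CPM in Il21r-/-. All WT libraries were above all Il21r-/- libraries, narrowly on day 7, and the log2 fold change was 0.30 (SE 0.12, adjusted p 0.18, and 0.0105 with day as a block). Oip5, a subunit of the Mis18 complex that prepares the centromere for new CENP-A, was at 25.8, 34.0 and 36.6 CPM in WT and at 26.7, 25.5 and 29.7 CPM in Il21r-/-. It was level on day 7 and higher in WT afterwards, with a log2 fold change of 0.23 (SE 0.12, adjusted p 0.34). Mis18a, its partner in that complex, was at 49.9, 54.8 and 64.3 CPM in WT and at 47.7, 44.9 and 59.4 CPM in Il21r-/-, and the genotypes overlapped (0.15, SE 0.11, adjusted p 0.45). Hjurp, the chaperone that deposits CENP-A, was at 28.2, 29.8 and 27.6 CPM in WT and at 27.6, 32.5 and 26.2 CPM in Il21r-/-. It was the only kinetochore gene not higher in WT over the 3 days, at -0.01 (SE 0.12, adjusted p 0.97), and the difference between Hjurp and Cenpa was not tested. The Hjurp value turned positive in 1 alternative fit with both day 10 libraries left out and in some fits without 1 library.

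The 10 genes of the constitutive centromere network were all higher in WT over the 3 days, by 0.03 to 0.32 on the log2 scale with a median of 0.18. With day as a block 3 of the 10 passed the test, Cenpn, Cenpi and Cenph. Cenpn, which reads CENP-A nucleosomes, was at 48.6, 64.2 and 60.6 CPM in WT and at 41.9, 50.2 and 46.3 CPM in Il21r-/-. WT was higher on each day and the ranges overlapped only through the WT library of day 7 (0.32, SE 0.12, adjusted p 0.17, and 0.00976 with day as a block). Cenpi, part of a complex with Cenph and Cenpk, was at 34.3, 40.9 and 44.4 CPM in WT and at 32.2, 28.3 and 34.9 CPM in Il21r-/- (0.32, SE 0.12, adjusted p 0.16, and 0.0194 with the block). Cenph was at 32.1, 41.0 and 42.9 CPM in WT and at 29.9, 29.3 and 34.9 CPM in Il21r-/- (0.30, SE 0.11, adjusted p 0.17, and 0.0315 with the block). In both genes the libraries of day 7 were close and those of day 10 furthest apart. Cenpq, by contrast, was at 33.9, 37.1 and 37.9 CPM in WT and at 36.0, 33.1 and 37.9 CPM in Il21r-/-, with the genotypes interleaved (0.03, SE 0.11, adjusted p 0.92). The other 6 had values of 0.28 for Cenpk, 0.22 for Cenpt, 0.13 for Cenpl and Cenpw, and 0.09 for Cenpm and Cenpp.

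In the outer kinetochore, which holds the microtubule, all 11 genes were higher in WT over the 3 days, by 0.02 to 0.39 on the log2 scale with a median of 0.26. With day as a block 5 passed the test. Ska3, of the complex that follows shrinking microtubule ends, was at 39.2, 52.7 and 46.0 CPM in WT and at 37.0, 32.4 and 36.0 CPM in Il21r-/-. All WT libraries were above all Il21r-/- libraries, and on day 10 the knock-out level was 61.3% of WT (over 3 days 0.39, SE 0.13, adjusted p 0.13, and 0.00971 with the block). Mis12, which links the network to the outer layer, was at 50.5, 54.3 and 59.5 CPM in WT and at 47.5, 44.4 and 42.6 CPM in Il21r-/-, again without overlap (0.29, SE 0.11, adjusted p 0.17, and 0.027 with the block). Its partner Dsn1 was at 26.6, 34.4 and 38.5 CPM in WT and at 24.0, 27.4 and 27.9 CPM in Il21r-/- (0.32, SE 0.12, adjusted p 0.17, and 0.0242 with the block). WT was higher on each day, and the WT library of day 7 fell within the knock-out range. A further partner, Pmf1, was at 140, 141 and 146 CPM in WT and at 133, 135 and 154 CPM in Il21r-/-, with overlap and a value of 0.02 (SE 0.09, adjusted p 0.92). Of the Ndc80 complex, the microtubule-binding rod, Nuf2 and Spc24 passed with the block (0.25 and 0.27), and Ndc80 and Spc25 did not (0.27 and 0.15). The values of Ska1, Ska2 and Nsl1 were 0.26, 0.18 and 0.14.

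The 10 genes of the spindle checkpoint and corona were all higher in WT over the 3 days, by 0.06 to 0.50 on the log2 scale with a median of 0.30, and 5 passed the test with day as a block. Zwilch, a subunit of the RZZ complex that brings dynein and checkpoint proteins to the kinetochore, lies at chr9:64137144-64173104. It was at 36.8, 47.0 and 44.0 CPM in WT and at 29.0, 30.7 and 31.4 CPM in Il21r-/-. All WT libraries were above all Il21r-/- libraries, and the knock-out level was 78.8%, 65.3% and 71.4% of WT on days 7, 10 and 14. The log2 fold change was 0.49 (SE 0.11), a fold of 1.40, with an adjusted p of 0.0424, and of 0.000483 with the block. This call was lost without any 1 of 5 libraries, the exception being the Il21r-/- library of day 10, and the adjusted p over the 17 alternative settings ran from 0.000445 to 0.226 at log2 fold changes of 0.40 to 0.57. Of its exon bases 5.93% overlap Lctl on the opposite strand, and the library kit keeps no strand, so reads from that stretch cannot be told apart. Zw10, of the same complex, also had no overlap between genotypes, but its difference was smaller (0.20, SE 0.11, adjusted p 0.32, and 0.13 with the block).

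Cenpe and Cenpf, 2 large proteins of the outermost corona, had the widest range of all 39 genes. Cenpe, a kinesin that moves chromosomes to the spindle equator, was at 20.7, 50.0 and 67.6 CPM in WT and at 19.9, 38.2 and 32.1 CPM in Il21r-/-. The genotypes were equal within 1 CPM on day 7, and on day 14 the knock-out level was 47.5% of WT. Over the 3 days its log2 fold change was the largest of the list, 0.50, but with an SE of 0.25 it passed neither test (adjusted p 0.30, and 0.12 with the block). That rank rests on 1 library, since the value was 0.14 without the Il21r-/- library of day 14, where Zwilch was at 0.45. Cenpf was at 11.2, 24.8 and 34.8 CPM in WT and at 9.64, 19.9 and 18.2 CPM in Il21r-/-, a knock-out level of 52.2% of WT on day 14 (0.48, SE 0.23, adjusted p 0.28, and 0.00581 with the block). Its value also rests largely on 1 library, being 0.175 without the Il21r-/- library of day 14. The kinase Bub1 was at 89.9, 111 and 115 CPM in WT and at 86.5, 82.8 and 78.2 CPM in Il21r-/-, without overlap (0.35, SE 0.12, adjusted p 0.13, and 0.00652 with the block). Ttk, the kinase that starts the checkpoint, and Bub1b, its effector at the anaphase promoting complex, also passed with the block (0.36 and 0.26). Zwint, a kinetochore scaffold, was at 54.2, 63.5 and 64.9 CPM in WT and at 51.0, 57.9 and 67.7 CPM in Il21r-/-, with overlap and a value of 0.06 (SE 0.10, adjusted p 0.80). Mad2l1 and Bub3 had values of 0.17 and 0.10 and passed neither test.

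The chromosomal passenger complex was the role group with the largest median over the 3 days, 0.34, though on day 14 the spindle checkpoint and corona had a larger one (0.40 against 0.32), and all 4 of its genes passed the test with day as a block. Aurkb, the Aurora B kinase (chr11:69045624-69051664), was at 170, 202 and 187 CPM in WT and at 143, 149 and 149 CPM in Il21r-/-. Cdca8, the Borealin subunit, was at 181, 212 and 204 CPM in WT and at 148, 159 and 163 CPM in Il21r-/-. In both genes every WT library was above every Il21r-/- library, already on day 7, where the knock-out levels were 84.0% and 81.7% of WT. Their log2 fold changes were 0.34 for Aurkb (SE 0.10, adjusted p 0.0818, and 0.00201 with the block) and 0.34 for Cdca8 (SE 0.09, adjusted p 0.0714, and 0.00155 with the block). Incenp, the scaffold of the complex (chr19:9872295-9899489), was at 78.6, 128 and 133 CPM in WT and at 68.3, 91.5 and 78.6 CPM in Il21r-/-. WT was higher on each day, and only the WT library of day 7 fell within the knock-out range, with a value of 0.49 (SE 0.16, adjusted p 0.13, and 0.000383 with the block). Without the Il21r-/- library of day 14 the value of Incenp was 0.292. Birc5, or Survivin, was at 234, 268 and 296 CPM in WT and at 218, 201 and 260 CPM in Il21r-/- (0.23, SE 0.10, adjusted p 0.23, and 0.0279 with the block). Its libraries overlapped, the Il21r-/- library of day 14 being above the WT library of day 7.

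The second question was how the kinetochore genes changed over the response in both genotypes. With a linear effect of day 37 of the 39 had a positive slope, as had 50.5% of tested genes. By edgeR's quasi-likelihood test 1 of the 39 passed, Ska1, where 1.07% of tested genes passed with a positive slope. Ska1 was at 32.9, 42.9 and 57.2 CPM in WT and at 31.6, 30.5 and 48.2 CPM in Il21r-/-, so that both libraries of day 14 were above all others. Its slope was 0.10 log2 units per day (SE 0.02, adjusted p 0.0331). Without 1 library the adjusted p of this slope was 0.28 and 0.0561 when the WT or Il21r-/- library of day 7 was left out, and 0.35 and 0.18 for those of day 14.

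From day 7 to day 10, 4 of the 39 passed with a rise and none with a fall (10.3%, where 9.02% of tested genes passed with a rise): Cenpf, Cenpe, Incenp and Cenpn. The count of those that rose was thus close to the share of all tested genes. The rise was 2.22-fold in WT and 2.06-fold in Il21r-/- for Cenpf, 2.42-fold and 1.92-fold for Cenpe, and 1.63-fold and 1.34-fold for Incenp, so it was seen in both genotypes. The fitted log2 fold changes were 1.10 for Cenpf (SE 0.16, adjusted p 6.2e-05), 1.11 for Cenpe (SE 0.24, adjusted p 0.0326), 0.56 for Incenp (SE 0.11, adjusted p 0.00135) and 0.33 for Cenpn (SE 0.11, adjusted p 0.0416). Without 1 library the count was 1 to 5. Cenpf passed in each of these fits, Cenpe failed without either library of day 10, Incenp also without the WT library of day 7, and Cenpn without any 1 library. From day 10 to day 14, 7 of the 39 (17.95%) passed with a rise and 1 with a fall, where 10.4% of tested genes passed with a rise and 11.4% with a fall. Those that rose were Cenpk (0.54, SE 0.14, adjusted p 0.00675), Ska1 (0.53, SE 0.12, adjusted p 0.00293), Spc25 (0.40, SE 0.11, adjusted p 0.0126), Mad2l1, Spc24, Cenpp and Mis18a. Cenpk was at 26.9, 33.1 and 48.6 CPM in WT and at 28.6, 24.1 and 34.6 CPM in Il21r-/-, and Spc25 at 60.8, 71.9 and 86.1 CPM in WT and at 64.0, 53.6 and 78.8 CPM in Il21r-/-. In both genes the knock-out level was lowest on day 10. Cenpt, which recruits the Ndc80 complex from within the centromere, was the gene that fell (-0.42, SE 0.14, adjusted p 0.0272), from 26.3 to 21.0 CPM in WT and from 22.9 to 16.1 CPM in Il21r-/-. Both day comparisons share the day 10 libraries, and the calls of Cenpk, Ska1, Spc25 and Cenpt were lost without the Il21r-/- library of day 10 or either library of day 14, that of Cenpt also without the WT library of day 10.

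Whether the day trend itself differed between the genotypes was tested as an interaction. None of the 39 passed, with either edgeR or DESeq2, and none of the 11005 genes did (0%). Before adjustment 0 of the 39 and 118 of all genes had p under 0.05 with edgeR. The largest interaction was that of Cenpe, at 0.15 log2 units per day (SE 0.08, adjusted p 1 by edgeR). The wider gap between genotypes on days 10 and 14 than on day 7 is therefore a description and was not shown to differ by day.

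**Figure D3:**
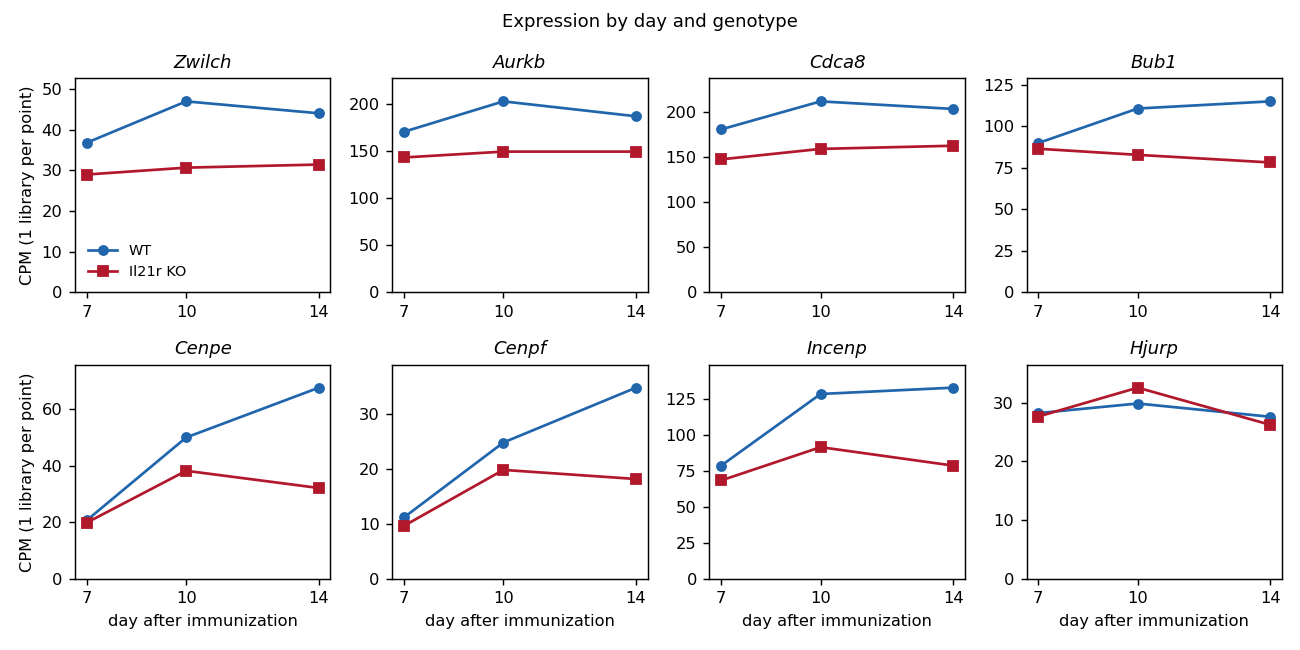
CPM (y axis, from 0) on days 7, 10 and 14 (x axis) for 8 genes, 1 library per point, WT in blue circles and Il21r KO in red squares. Zwilch, Aurkb, Cdca8 and Bub1 have every WT point above every Il21r KO point, Bub1, Cenpe, Cenpf and Incenp are furthest apart on day 14, and Hjurp is alike in both genotypes.

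Gene length moved with some of these differences. Genes with more than 8000 exon bases (417 of the tested genes) had a median log2 fold change from day 7 to day 10 of 0.41, and those of 6000 to 8000 bases of 0.22, while the median of genes under 1000 bases was -0.14. Cenpf and Cenpe belong to these long classes, and their rise was larger than that of 93.8% and 97.6% of the genes of their class. Hjurp, also long, was larger than 30.5% of its class, with 0.16. The trend was not alike in the libraries. Relative to the mean of each gene over all libraries, genes over 8000 bases had medians of -0.069 (WT) and -0.215 (Il21r-/-) on day 7. On day 10 they were at 0.132 (WT) and 0.342 (Il21r-/-), so the Il21r-/- library of day 10 was the furthest from the mean. When the length trend was taken out of each library, the rise of Cenpf from day 7 to day 10 was 0.69 (adjusted p 0.0126) and that of Incenp 0.52 (adjusted p 0.0102), whereas Cenpe was at 0.83 and no longer passed (adjusted p 0.15). From day 10 to day 14 the trend ran the other way, with medians of 0.34 under 1000 bases and -0.31 over 8000 bases. With it taken out Spc25 was at 0.31 and no longer passed (adjusted p 0.0598), nor did Spc24 (0.14), Cenpp (0.34) and Mis18a (0.27, all adjusted p), while Cenpk, Ska1, Mad2l1 and Cenpt did. The genotype difference over 3 days had little length trend, with class medians between -0.09 and 0.01. On single days it had one, since genes over 8000 bases had medians of 0.14, -0.21 and 0.12 on days 7, 10 and 14, beside values of 0.21, 0.32 and 0.94 for Cenpf. With the length trend taken out, 6 of the 39 passed without the day block: Zwilch, Aurkb, Cdca8, Incenp, Cenpa and Spc24, where 4.69% of tested genes were higher in WT.

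**Figure D4:**
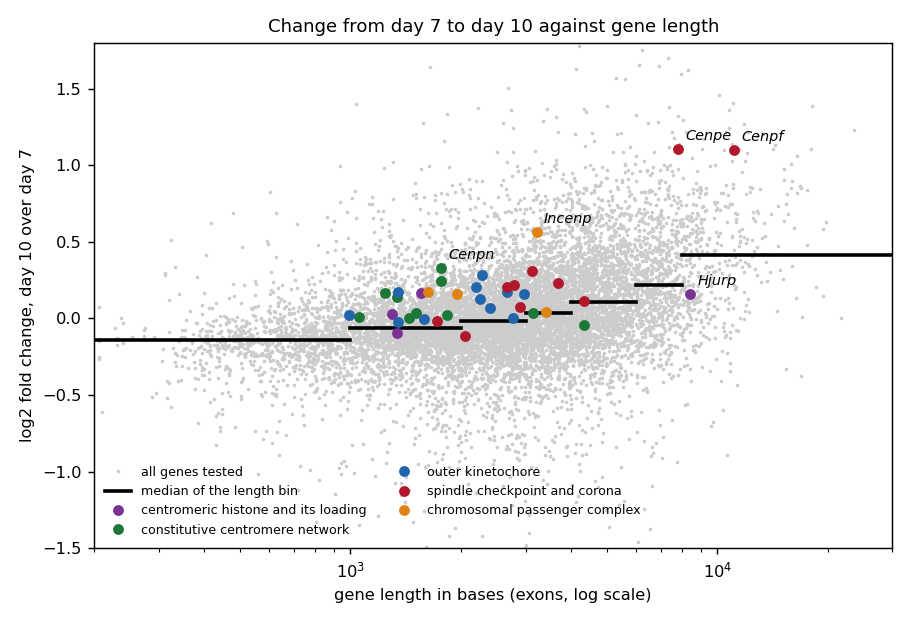
Log2 fold change from day 7 to day 10 (y axis) against exon length in bases (x axis, log scale) for all tested genes (grey) and the 39 kinetochore genes (coloured by role). Black bars are the medians of 7 length classes, which rise from -0.14 to 0.41, and Cenpe, Cenpf and Incenp lie above the bars of their classes. Genes outside the axis limits are not drawn.

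Genes that work with the 39 were listed as well. Of 24 other kinetochore genes, 21 were higher in WT over the 3 days (median 0.26), none passed with the linear day term, and 11 passed with day as a block, where 48.2% of all tested genes were higher in WT and 9.33% passed on that side with the block. Knl1, the scaffold on which Bub1 and Bub3 dock, had the largest difference at 0.86 (SE 0.26, adjusted p 0.10, and 0.0019 with the block). It was at 10.1, 20.0 and 21.7 CPM in WT and at 7.64, 12 and 7.91 CPM in Il21r-/-. Cenpu of the centromere network was at 0.60 (SE 0.16, adjusted p 0.06). Of 19 genes of the anaphase promoting complex and its regulators, the target of the checkpoint, 15 were higher in WT with a smaller median of 0.15, and 3 passed with the block. Fbxo5, an inhibitor of the complex, was at 0.33, its activator Cdc20 at 0.24 and the subunit Cdc27 at 0.22. All 15 genes of the cohesin and separase list, which hold and release sister chromatids, were higher in WT (median 0.28), 8 of them past the test with the block. Esco2, which acetylates cohesin in S phase, passed without the block as well (0.60, SE 0.13, adjusted p 0.028), and Pds5a and Smc3 were at 0.47 and 0.44.

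The genotype effect can be set beside the promoter letters for the 33 genes with a window, which leaves out Zwilch, Aurkb, Incenp, Spc24, Nsl1 and Ska1, 4 of them among the 18 that passed with the block. The 19 genes with a CHR had a median log2 fold change over 3 days of 0.23 and 8 of them passed with day as a block, and the 14 without it had a median of 0.24 and 6 passed. The 23 genes with CCAAT had a median of 0.26, and the 10 without it 0.23.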

How the data were processed

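RNA-seq was performed on 6 libraries of sorted splenic GC B cells, with the unstranded TruSeq v2 kit. The submitters' notes name CASAVA 1.8.2, featureCounts and mm10. Alignment was by Rsubread, genes were those of RefSeq, technical replicates were pooled, and the authors deposited raw counts per gene without normalization. Strand and multi-mapping settings are not given in the sources used here.

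From these counts, edgeR 4.0.16 in R 4.3.3 was used as in the study's methods as far as stated: an average log2 CPM of at least 0 was required, genes of the Y chromosome, Ig variable segments and Xist were removed, TMM factors were computed, and robust dispersions came from a model of genotype plus linear day (3 residual degrees of freedom). Genotype over 3 days, the linear day effect and the interaction were tested by the quasi-likelihood test, genotype on each day by likelihood ratio tests with these dispersions, and days 10 against 7 and 14 against 10 in a model of genotype plus day as a factor. Log2 fold changes are WT over Il21r-/-. P-values were adjusted by Benjamini-Hochberg across the 11005 genes tested. CPM use TMM-scaled library sizes and RPKM divide by the table's exon length.

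The day pairs the libraries, and day as a block was the paired alternative (2 residual degrees of freedom). Deviations from the genotype means correlated across genes with r = 0.63, 0.39 and 0.63 on days 7, 10 and 14. They hold the change with day itself, its linear part included. The correlations therefore do not show that libraries of a day share anything further. Other alternatives were DESeq2 1.42.0, its size factors, other filters, each library left out and, chosen after seeing the data, a length offset (lowess of log2 CPM on log2 length, span 0.3). Exon overlaps came from GENCODE M21 (GRCm38). The genes and lists were chosen with earlier results of these data known. Per-library values are given for the 3 largest and the 1 smallest differences of each role group, for up to 3 genes per direction of each day test, and for some others chosen after their values were seen. The tests were tried on simulated data.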

Additional observations from a re-analysis of the deposited data

How the results depend on the processing

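The median log2 fold change of the 39 kinetochore genes stayed positive under every alternative run (0.20 to 0.33 over 3 days without 1 library), and 35 of the 39 genes were higher in WT in all 18 settings of the 3-day test. The exceptions, with values near 0, were Hjurp (-0.088 to 0.084 without 1 library, 0.026 without WT day 7), Pmf1 (-0.01 to 0.072, -0.004 without Il21r-/- day 10), Cenpp (-0.033 to 0.25) and Cenpq (-0.024 to 0.082). With day as a block and without both day 10 libraries, Hjurp was at 0.052, Cenpp at -0.054, Cenpq at -0.044 and Pmf1 at -0.002, and without both day 7 libraries Pmf1 was at -0.005.

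The number of kinetochore genes called depended on the fit. Over 3 days it was 1 as reported, 4 with DESeq2, 6 with the length offset, 18 with day as a block and 20 with both. Of all tested genes 1.4%, 2.89%, 4.69%, 9.33% and 12.48% were called higher in WT by these fits. With day as a block the count of kinetochore genes was 24, 6 and 3 without the libraries of day 7, 10 and 14. For those fits no share of all genes is given here. With the linear day term and without 1 library the count of kinetochore genes was 0 to 9. It was 9 without the Il21r-/- library of day 10 and 0 without any of the others. For all genes the count of 651 became 2519 with day as a block and 132 to 2165 without 1 library. On day 10 the count of 0 became 2 with the length offset, 1 with the linear day term kept, and 0 to 3 when the dispersions left out 1 library, with 0 to 1 on day 14. For the linear day effect the count of 1 became 2 with every gene that had any count, 4 with DESeq2, 6 with the length offset and 0 to 11 without 1 library, again highest without the Il21r-/- library of day 10. From day 7 to day 10 the count of 4 became 1 to 5, and from day 10 to day 14 the count of 8 became 5 with DESeq2 and 0 to 9, being 0 without Il21r-/- day 10 or either library of day 14. The counts over all genes moved between fits as well, and the cause of these shifts was not tested.

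With 1 library per genotype and day, a difference seen on 1 day only adds to the dispersion, which lowers the power of the single-day tests. Fits that leave out 1 library assume that the lone library of that day varies like the rest. Common dispersions corresponded to a biological variation of 13.1% (linear day) and 8.89% (block). Exons of Oip5, Cenpp, Ska2 and Mis12 overlap opposite-strand genes over 9.67%, 12.3%, 10.1% and 7.69% of their bases.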

Other observations

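Other parts of the division program were also higher in WT. Of 12 mitotic cyclins and kinases all were higher over the 3 days (median log2 fold change 0.36), 8 passed edgeR's test with day as a block, and the centrosome kinase Nek2 passed with the linear day term as well (0.52, SE 0.10, adjusted p 0.0179). The mitotic cyclin Ccnb1 was at 196, 231 and 243 CPM in WT and at 180, 147 and 188 CPM in Il21r-/- on days 7, 10 and 14, and Plk1 at 195, 211 and 168 CPM in WT and at 148, 159 and 135 CPM in Il21r-/-. In both genes the lowest WT library was above the highest Il21r-/- library.

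All 18 genes of the replication licensing list, which act before and in S phase, were higher in WT over the 3 days (median 0.38) and all 18 passed with day as a block, where 9.33% of tested genes did. On day 7 their median was already 0.34 with 18 of 18 higher in WT, while that of the 39 kinetochore genes was 0.07. Mcm2, of the replicative helicase, was at 343, 394 and 355 CPM in WT and at 236, 298 and 250 CPM in Il21r-/-. Orc1 of the origin recognition complex had the largest difference (0.66, SE 0.13, adjusted p 0.0195). The difference between this list and the kinetochore genes was not tested. Of 13 licensing genes with a promoter window 8 held the E2F letters (61.5%) and 4 the CHR (30.8%), against 12.1% and 57.6% of the kinetochore genes.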
